A study of Papio hamadryas with 17 samples.

Results

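The proteasome is the barrel-shaped protease that degrades proteins tagged with ubiquitin. Its genes were taken as every gene of the deposited tables whose symbol begins with PSMA, PSMB, PSMC, PSMD, PSME, PSMF or PSMG. This gave 47 of the 13851 genes in the table of females. One of them, PSMC3IP, encodes a protein that binds an ATPase subunit and is no subunit itself, so it was counted apart and 46 genes are described. PSMA8 and PSMB11, the testis and thymus forms, were not among the genes in the tables as held here.

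RNA from kidney cortex biopsies of 17 baboons (Papio hamadryas) was sequenced as stranded mRNA libraries, 1 library per animal. The 8 females had age labels of 15 to 19 and the 9 males of 6 to 13, with no unit given. All 17 animals came from 1 colony, ate low-salt chow for life and had no further treatment. The biopsies were guided by ultrasound under ketamine and isoflurane, with buprenorphine for pain relief, and were collected into liquid nitrogen. The p-values given here measure the spread between these animals.

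The core particle of the proteasome is a stack of rings of alpha and beta subunits, and the proteolytic sites lie on the beta subunits PSMB5, PSMB6 and PSMB7. The 19S cap binds ubiquitin chains, removes them and threads the protein into the core by means of a ring of ATPases. Interferon signalling and blood-derived cells are known for replacing the catalytic subunits with PSMB8, PSMB9 and PSMB10, which form the immunoproteasome and favour peptides for antigen presentation. In the kidney the proteasome serves general protein turnover, and in skeletal muscle it is also known for its part in the breakdown of contractile protein.

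Values are given as signal, the deposited abundance of each transcript less an offset of 1, summed per gene. Summed over the transcripts found in both tables, it ranged from 259197 to 670142 between libraries. Whether the deposited values were divided by transcript length is not given in the sources used here, so levels were compared between libraries and not between genes. The tissue label was checked against marker genes. In female 1, female 2 and male 6 the skeletal muscle genes held in both tables summed to 54348 or more, against at most 21.9 in the other 14 libraries. These 3 libraries are called muscle-rich below. In females 1 and 2 the 9 skeletal muscle markers found of 12 summed to 117141 and 176840, against 10.8 to 25.5 in females 3 to 8. The 4 markers of the thick ascending limb summed to 23.4 and 13.3 there, against 1802 to 11495, and the 8 proximal tubule markers to 14.2 and 15.2, against 165 to 2336. In male 6 the thick limb markers summed to 1007. The kidney label is thus met by its defining markers in females 3 to 8 and not in females 1 and 2. In a biopsy, fewer cells of a type and less RNA per cell cannot be told apart.

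The male table was held in part, and 33 of the 46 genes were held in the female table alone. Both tables held every transcript of 4 genes, PSMB1, PSMD5, PSMD9 and PSMG1, and some transcripts of 9 more. The fullest account of the proteasome therefore comes from the 8 females. The 2 muscle-rich females both carried the age label 19, as did female 3. Their comparison with the 6 others is a description with no test, since these libraries were set apart by their measured muscle signal.

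Most proteasome genes had more signal in both muscle-rich females than in any of the 6 others. This held for 38 of the 46 genes, against 44.4% of the 12868 genes tested. No proteasome gene lay below the 6 others in both, against 18.7% of all genes. The median difference in mean log2(signal + 1) was 1.75 for the 46 genes and 0.45 for all genes. Because all genes were shifted, libraries were also scaled to a common median. Then 34 proteasome genes lay above, against 33.2% of all genes, and 4 below, against 27.6%. With scaling to a common upper quartile, 30 lay above, against 25.1%, and 7 below, against 36.2%. Total signal in the female table was also larger, at 1112240 and 1435690 in females 1 and 2 against 392179 to 482088. As a share of that total the 46 genes held 0.326% and 0.257%, against 0.180% to 0.265% in females 3 to 8. By this measure female 2 lay within the range of the 6 others.

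**Figure D1:**
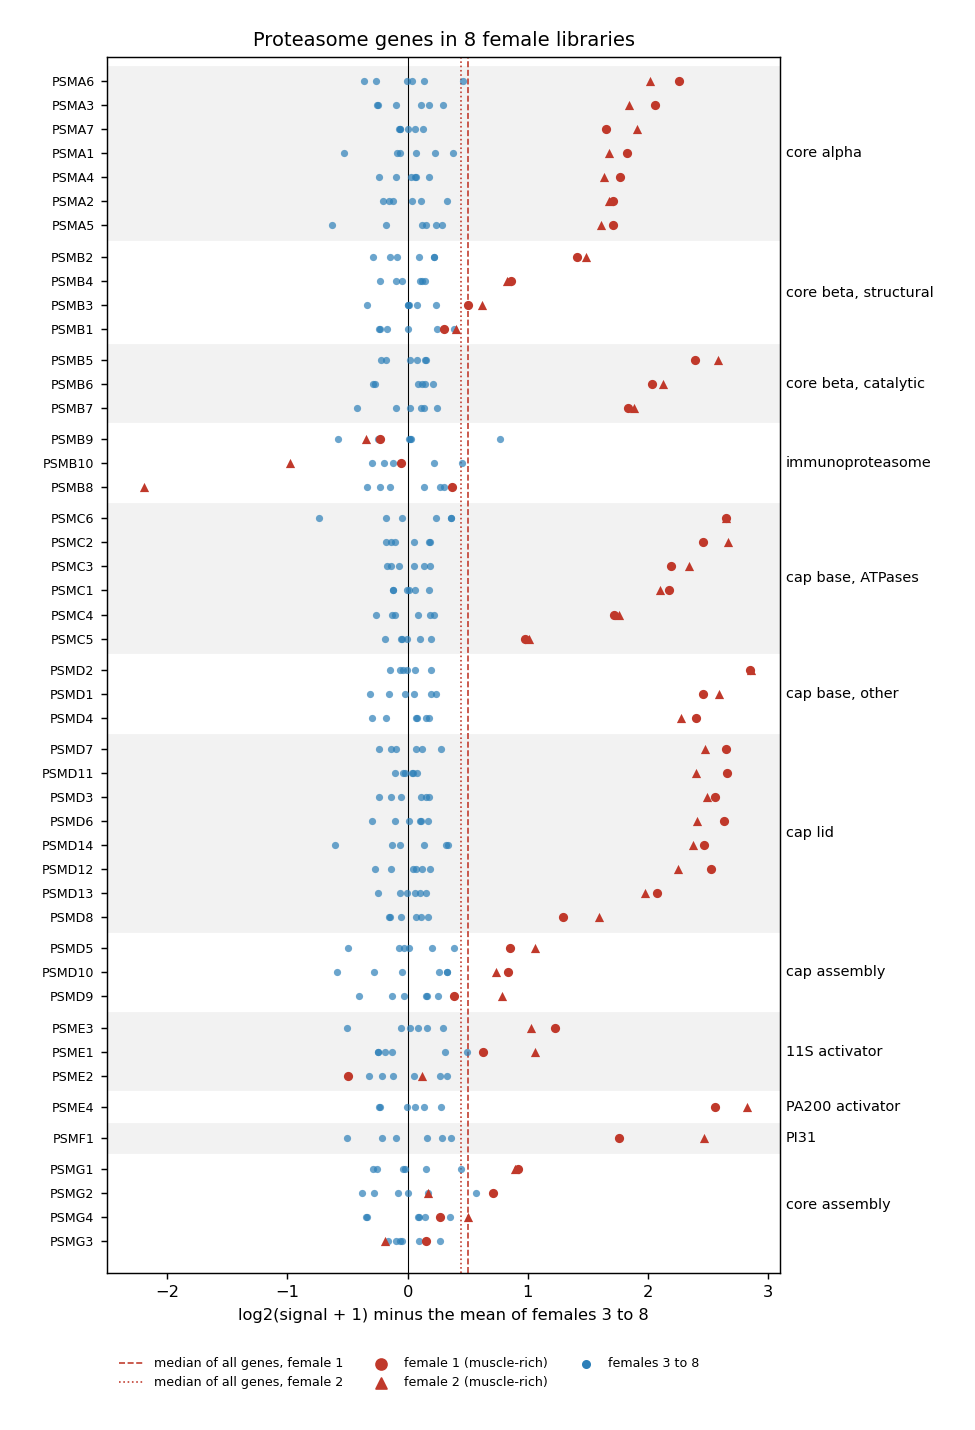
The log2(signal + 1) of each proteasome gene in each female library, less the mean of females 3 to 8, with genes grouped by role. Red symbols are the 2 muscle-rich females, blue points the other 6, and the vertical red lines mark the median of all genes in female 1 and female 2. PSMD2 of the cap base lies farthest to the right, and the red symbols of the 3 immunoproteasome genes overlap the blue points or lie to their left, female 1 being highest for PSMB8 by a narrow margin.

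The 7 alpha subunits, which form the outer rings and the gate of the core, lay above the 6 others in both muscle-rich females, under each scaling. PSMA6 had the largest difference of this group. Its signal was 39.5 and 33.3 in females 1 and 2 and 10.7, 8.31, 5.58, 6.05, 7.69 and 7.46 in females 3 to 8. The smallest belonged to PSMA5, with 43.1 and 40.1 in the muscle-rich females against 7.73 to 15.5. Both genes thus had a gap between the muscle-rich females and the rest, with a log2 difference of 2.14 for PSMA6 and 1.66 for PSMA5. PSMA7 varied least among females 3 to 8, between 32.1 and 36.9, and reached 108 and 129 in females 1 and 2.

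The 4 beta subunits without a proteolytic site differed among themselves. PSMB2 had a signal of 49.9 and 52.7 in females 1 and 2 and of 14.8 to 21.3 in the others. PSMB4 had 71.7 and 70.0 against 33.1 to 43.2. PSMB3 had 39.1 and 42.6 against 21.5 to 32.5. These 3 genes lay above the 6 others as deposited, with log2 differences of 1.45, 0.85 and 0.56. With upper quartile scaling PSMB2 stayed above, PSMB4 overlapped and PSMB3 lay below. PSMB1 overlapped the others, with 45.4 and 48.9 in females 1 and 2 against 30.9, 36.7, 31.2, 48.4, 43.8 and 32.4. Female 6 was nearly as high as female 2. With upper quartile scaling PSMB1 lay below the 6 others.

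The 3 catalytic subunits lay above the 6 others under each scaling. PSMB5, which cuts after hydrophobic residues, had a signal of 138 and 157 in females 1 and 2 and of 28.4, 25.8, 22.4, 26.9, 28.4 and 21.8 in females 3 to 8. PSMB6, which cuts after acidic residues, had 128 and 136 against 35.3, 33.7, 24.7, 33.1, 32.4 and 25.0. PSMB7, which cuts after basic residues, had 112 and 116 against 34.0, 33.4, 22.7, 36.6, 31.2 and 28.7. The muscle-rich mean was 5.76, 4.30 and 3.67 times the mean of the 6 others for the 3 genes in that order, and none of their values overlapped.

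The immunoproteasome genes did not share this. PSMB8, the counterpart of PSMB5, had a signal of 9.94 in female 1 and 0.857 in female 2, against 9.46, 8.34, 5.72, 9.23, 6.25 and 6.65 in females 3 to 8. PSMB9, the counterpart of PSMB6, had 5.21 and 4.73 against 6.35, 6.39, 6.43, 11.5, 3.88 and 5.14. PSMB10, the counterpart of PSMB7, had 6.86 and 3.16 against 6.86, 8.54, 6.53, 10.2, 6.11 and 5.64. In each of the 3 genes the muscle-rich females overlapped the others as deposited, and the log2 differences were -0.91, -0.29 and -0.52. The PSMB8 difference came with 1 low library, since female 1 had the highest and female 2 the lowest PSMB8 signal of the 8. After median scaling PSMB9 and PSMB10 lay below the 6 others in both muscle-rich females, and after upper quartile scaling all 3 did.

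The ratio of each immunoproteasome gene to its constitutive counterpart does not depend on library scaling before the pseudocount of 1 is added. The log2 ratio of PSMB8 to PSMB5 was -3.66 and -6.41 in females 1 and 2 and lay between -2.02 and -1.45 in the other 6. That of PSMB9 to PSMB6 was -4.38 and -4.58 against -2.78 to -1.45. That of PSMB10 to PSMB7 was -3.84 and -4.82 against -2.18 to -1.65. All 3 ratios were lower in both muscle-rich females than in any other female, by means of -3.40, -2.37 and -2.38. On the same log2(signal + 1) scale the denominators PSMB5, PSMB6 and PSMB7 alone differed by 2.48, 2.08 and 1.86.

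**Figure D2:**
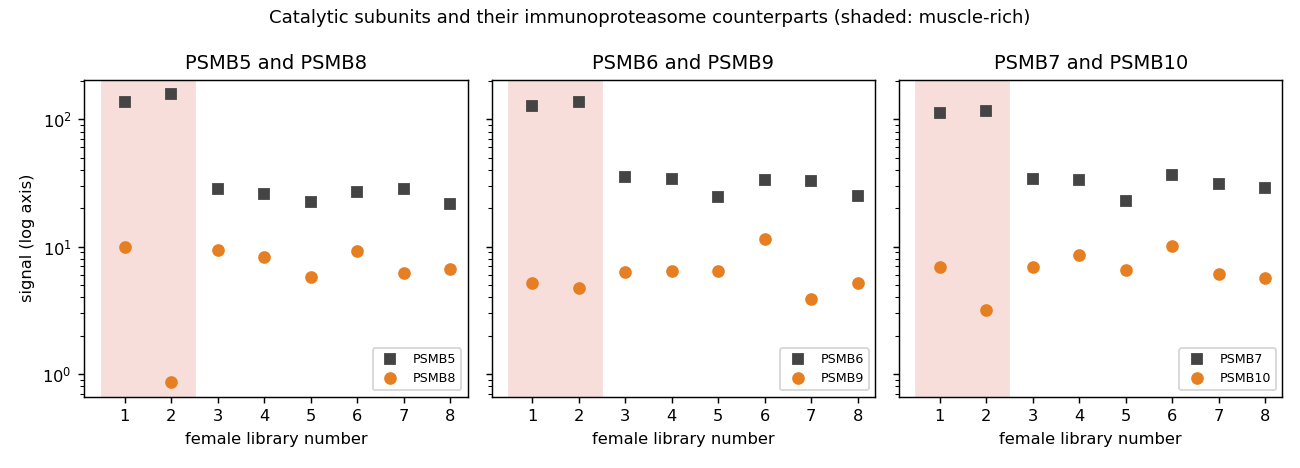
Signal of PSMB5, PSMB6 and PSMB7 (dark squares) and of PSMB8, PSMB9 and PSMB10 (orange points) in each of the 8 female libraries, on a log axis, with the muscle-rich females 1 and 2 shaded. The squares step up in the shaded libraries, to between 112 and 157, while the orange points there lie between 0.857 and 9.94, against 3.88 to 11.5 in the other 6.

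Immune cell markers were examined beside these genes. Of 16 markers 12 were found, and their summed signal was 34.4 in female 1, 9.19 in female 2 and 18.0 to 45.5 in females 3 to 8. In female 2, 5 of the 12 were at 0, among them the T cell gene CD3E and the macrophage and natural killer cell gene TYROBP, whereas 0 were at 0 in female 1. Their part in the immunoproteasome values was not tested. Depth also differed: in units of the step between a library's low values, PSMB8 stood at 5.43 steps in female 2 and at 58 to 336 steps in the other 7. PSMB8 in female 2 is therefore the least precise of these values.

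The cap, or 19S regulatory particle, had a larger median difference than the core, though the ranges of single subunits overlapped. All 17 of its subunits lay above as deposited and after median scaling, and 16 did after upper quartile scaling, where PSMC5 overlapped. The median log2 difference was 2.42 for the cap subunits and 1.73 for the 14 constitutive core subunits, and these 2 medians were not tested against each other. In the base, the 6 ATPases spanned 0.996 for PSMC5 to 2.65 for PSMC6. PSMC6 had a signal of 69.3 in both muscle-rich females and of 13.4, 12.2, 8.89, 5.73, 13.4 and 9.86 in the others. PSMC5 had 135 and 139 against 59.8 to 78.0. PSMC6 was thus lowest in female 6, while PSMC5 was highest in that library among the 6.

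Among the other base subunits, PSMD2, a scaffold that also docks ubiquitin-like domains, had the largest difference of the 46 genes. Its signal was 428 and 429 in females 1 and 2 and 58.2, 66.9, 56.7, 52.5, 60.8 and 55.6 in females 3 to 8, a ratio of means of 7.33. PSMD1, its partner scaffold, had 153 and 168 against 21.6 to 32.1. PSMD4, a receptor for ubiquitin chains, had 169 and 156 against 25.3 to 35.6. In these 3 genes no muscle-rich value came near those of the 6 others.

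The 8 lid subunits lay above the others under each scaling. Of these, PSMD14, the enzyme that cuts off the ubiquitin chain, had a signal of 50.4 and 47.0 in females 1 and 2 against 10.7, 7.90, 7.47, 5.09, 10.6 and 9.20. PSMD7, its inactive partner, had the largest lid difference, with 123 and 109 against 15.7 to 22.9. PSMD8 had the smallest, with 62.2 and 76.7 against 22.2 to 27.9. The lid therefore spanned log2 differences of 1.44 to 2.56. PSMD11, another lid scaffold, was the steadiest of the 46 genes among females 3 to 8, with 14.8 to 17.0, and reached 106 and 89.3 in females 1 and 2.

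Chaperones that build the proteasome had smaller differences, with medians of 0.79 for the cap base and 0.42 for the core. PSMD5, PSMD9 and PSMD10, which assist assembly of the cap base, had log2 differences of 0.96, 0.59 and 0.79. All 3 lay above the 6 others as deposited, 1 of them after median scaling and 0 after upper quartile scaling. PSMD10, also known as gankyrin, had a signal of 8.52 and 7.89 in females 1 and 2 against 5.68, 5.67, 4.16, 2.55, 5.37 and 3.40. Of the 4 chaperones of the core, PSMG1 lay above, with 16.3 and 16.1 against 6.53 to 11.5, and PSMG2, PSMG3 and PSMG4 overlapped. PSMG3 had 7.10 and 5.36 against 5.96, 7.75, 5.49, 6.05, 6.79 and 5.80, and was below the 6 others after either scaling.

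The activators that replace the cap gave different values. PSME1 and PSME2 form the interferon-inducible 11S ring and PSME3 the nuclear one. PSME1 had a signal of 45.2 and 61.2 in females 1 and 2 against 41.2, 36.1, 24.2, 25.1, 26.3 and 24.1. PSME2 had 14.4 and 22.7 against 25.2, 21.6, 16.5, 26.4, 19.0 and 17.8. Of this pair PSME1 lay above the others as deposited and overlapped after scaling, whereas PSME2 overlapped as deposited and lay below after either scaling. PSME3 had 62.7 and 54.3 against 32.3, 26.5, 25.2, 18.1, 29.5 and 27.9, and stayed above under each scaling.

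PSME4, the large single-chain activator PA200, had a signal of 50.2 and 60.6 in females 1 and 2 against 6.35, 6.39, 7.66, 9.55, 8.57 and 8.04. PSMF1, or PI31, which binds the core and was named as its inhibitor, had 84.2 and 138 against 31.5, 29.8, 16.7, 22.6, 27.3 and 20.7. Both genes lay above the other females under each scaling, with log2 differences of 2.69 and 2.11.

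Other genes of the pathway were counted from lists chosen by function. Of 11 further proteasome machinery genes tested, 10 lay above the 6 others, against 44.4% of all genes, and 1 below, against 18.7%. Their median log2 difference was 2.33, against 0.45 for all genes. With either scaling 10 lay above and 1 below, with medians of 1.83 (median scaling) and 1.46 (upper quartile scaling). KIAA0368, the gene of the proteasome adaptor ECPAS, had a signal of 271 and 302 in females 1 and 2 against 14.7 to 22.8. NFE2L1, the transcription factor that drives proteasome genes when activity is short, had 1205 and 1276 against 208 to 311. PAAF1, a negative regulator of cap assembly, was the exception, with 4.26 and 1.58 against 4.95 to 6.18. Of 16 genes of ubiquitin supply and shuttling, 15 lay above and 0 below, with a median of 2.13, and UBA6, an activating enzyme, overlapped. With median scaling 14 lay above, against 33.2% of all genes, and with upper quartile scaling 13 did, against 25.1%. The medians were then 1.64 and 1.28. The shuttle factor RAD23B had 285 and 287 against 12.7 to 29.9.

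Of 7 genes of muscle protein breakdown found, 4 passed the filter and these 4 lay above the 6 others, against 44.4% of all genes. The libraries were set apart by muscle signal, so high values of muscle genes there are no independent result. FBXO32, the muscle ubiquitin ligase atrogin-1, had a signal of 296 and 356 in females 1 and 2 against 4.22 to 15.8. TRIM63, the muscle ligase MuRF1, had 139 and 149 against at most 0.189, and did not pass the filter. The list of antigen-processing and interferon-related genes did not follow the proteasome subunits: 4 of 15 tested lay above, against 44.4% of all genes, 0 below, against 18.7%, and the median log2 difference was -0.05. With median scaling 2 lay above, against 33.2% of all genes, and 4 below, against 27.6%. The median was then -0.50, against 0.03 for all genes. With upper quartile scaling 0 lay above, against 25.1%, and 8 below, against 36.2%, with a median of -0.68, against -0.28 for all genes. IRF1, an interferon-induced transcription factor, had 11.1 in female 1 and 1.99 in female 2 against 10.3 to 14.9, and TAP2, a peptide transporter subunit, had 13.0 and 8.20 against 9.84 to 15.2. In female 2 IRF1 was thus low together with PSMB8 and PSMB10.

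Male 6 could be added for the 13 proteasome genes in both tables. In the 3 muscle-rich libraries 0 of these lay above the 14 others, against 14.9% of all genes, and 2 lay below, against 15.9%. After median scaling 2 lay above (PSMD5 and PSMG1), against 20.9%, and the same number below, against 13%. The members below, PSMC5 and PSMG2, were held there with some of their transcripts. The 2 of 4 PSMC5 transcripts in both tables gave 10.6 and 7.58 in females 1 and 2 and 9.40 in male 6, against 14.5 to 37.9 in the 14 others, whereas the whole gene lay above in the 2 females.

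The 2 PSMC5 transcripts in both tables are the variants X1 and X3 of the annotation. Each variant's share of its gene was computed for the 15 proteasome genes with more than 1 transcript, 39 transcripts in all. Both muscle-rich females lay outside the range of the 6 others for 19 of these, in 8 genes, against 31.5% of transcripts of all such genes. The PSMC5 variant X2 held 92.0% and 94.4% of the gene in females 1 and 2 against 42.6% to 65.1% in the others, and X1 held 5.89% and 5.40% against 30.0% to 42.6%. In PSMA1, X1 held 4.17% and 5.07% against 26.7% to 47.3%, and X3 held 56.6% and 59.5% against 17.9% to 44.1%. PSMC3 variant X2 held 85.0% and 77.0% against 46.4% to 72.5%. In PSMD4, X4 held 9.02% and 16.6% against 32.7% to 56.7%.

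The split of reads between overlapping variants is an estimate of the quantification tool. For PSMC2 it gave X1 50.7% of the gene in every library, so these 2 variants carry 1 measurement. The PSMG2 variant X2 was at 0 in females 1 and 2 and in male 6, and nearly 0 in female 6.

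**Figure D3:**
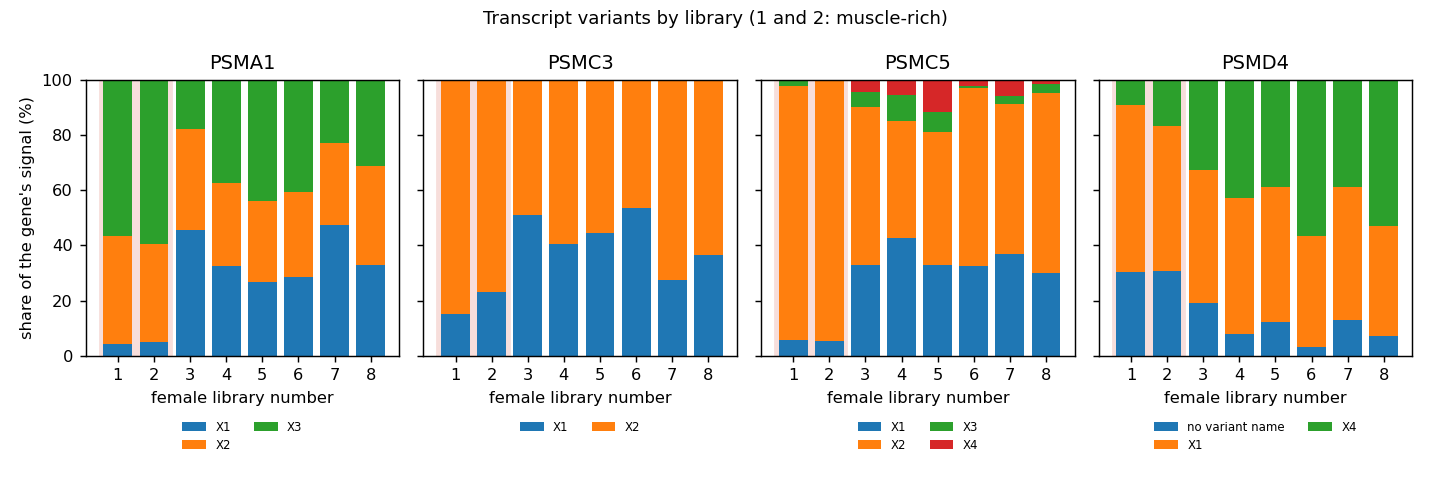
Share of each gene's signal held by each annotated transcript variant, in percent, for PSMA1, PSMC3, PSMC5 and PSMD4 in the 8 female libraries, of which 1 and 2 are muscle-rich. Variant X1 of PSMA1 and of PSMC5 shrinks to between 4.17% and 5.89% in the first 2 bars of each panel.

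Among females 3 to 8, proteasome genes varied little. The median SD of log2(signal + 1) was 0.21 over the 46 genes and 0.34 over all genes tested. The coefficient of variation ran from 4.87% for PSMD11 to 39.1% for PSMD5, with a signal of 0.415 to 1.61. It was under 20% in 31 genes and 30% or more in 2, PSMD5 and PSMB9. Female 5 was low in most of the 43 genes outside the immunoproteasome, with 6 above the mean of the 6 libraries. Its median over all genes was also low, at -0.15 against -0.17 for the proteasome genes.

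Over these 6 libraries the 3 immunoproteasome genes had a median pairwise Pearson correlation of 0.69, which is a description over few points that share library scaling. The core subunits had a median of 0.59, the cap subunits 0.24, and all gene pairs 0.22. Between the immunoproteasome genes and the 43 others it was 0.19. With median scaling the immunoproteasome median was 0.81, that of the core 0.50, that of the cap 0.30 and that of all gene pairs 0.00. Between the immunoproteasome genes and the 43 others the scaled median was 0.32, above that of all gene pairs. Female 6 was high in all 3 immunoproteasome genes, with PSMB9 at 11.5 where the next highest of the 8 was 6.43.

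Genome position is a feature that the choice of genes did not use. In the deposited tables PSMB8 (minus strand, 32183890 to 32187626) and PSMB9 (plus strand, 32196976 to 32202515) lie on sequence NC_018155.2 with 9349 bases between them. The peptide transporter gene TAP1 (minus strand, 32188687 to 32196894) lies in that gap, and TAP2 (minus strand, 32171132 to 32181996) lies before PSMB8. PSMB10 (minus strand, 50314225 to 50316743) is on NC_018171.2. PSME1 and PSME2 lie 3022 bases apart on NC_018158.2. These are spans of whole genes, and the build is not given in the sources used here.

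The authors' deposited table of females assigns each transcript to a co-expression module. Its blue module held 49 of the 70 proteasome transcripts (70%), against 41.7% of all 26644 transcripts. All transcripts of 32 of the 46 genes were blue. PSMB8 and PSMB10 were in the greenyellow module, which held 2.31% of all transcripts, PSMB9 was in cyan, PSME2 in grey60 and PSMG3 in brown. These modules were built from the same 8 libraries, the muscle-rich ones included.

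Between the sexes, 0 of the 13 proteasome genes in both tables passed an adjusted p of 0.05 in limma. Over the 9415 genes tested the share was 13.6%, with 13.2% higher in males and 0.372% in females. Of the 13, 4 were held with every transcript and 9 with some, so these counts mix whole genes with parts of genes. At an unadjusted p under 0.05 the count was 3 genes, PSMB1, PSMD5 and PSMG1, with limma adjusted p of 0.052, 0.135 and 0.135. The share of all genes at that threshold was not counted for this fit, so these 3 have no background beside them. Without the 3 muscle-rich libraries 4 of the 13 were lower in females and 0 higher, against 38.6% of all genes called, 36.3% being lower and 2.24% higher in females. The proteasome share is near that background. The median over all genes was itself shifted, by -0.28 with and -0.35 without the muscle-rich libraries, as female minus male log2. With the muscle-rich libraries left out and median scaling, 2 passed, PSMD14 lower and PSMC5 (X1 and X3) higher in females, against 29.7% of all genes, 15% lower and 14.7% higher.

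Of the 4 genes with every transcript in both tables, PSMG1 had a signal of 6.53, 8.00 and 11.48 (lowest, median and highest) in the 6 females low in muscle genes and of 11.54, 13.5 and 17.0 in the 8 such males. These ranges did not overlap, with means of 8.32 ± 1.83 (SD, n = 6) and 13.7 ± 1.91 (SD, n = 8). Females 1 and 2, at 16.3 and 16.1, lay in the upper part of the male range. The log2 difference was -0.67 ± 0.14 (SE, limma adjusted p = 0.0015) without the muscle-rich libraries and -0.43 ± 0.19 (adjusted p = 0.135) with them. With median scaling it was -0.25 (adjusted p = 0.121) without the muscle-rich libraries and -0.063 (adjusted p = 0.869) in all 17, so PSMG1 did not pass on that scale.

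PSMB1 had a signal of 30.9, 34.6 and 48.4 in the 6 females and of 41.8, 56.5 and 73.6 in the 8 males, and the ranges overlapped. Its difference was -0.58 ± 0.14 (SE, limma adjusted p = 0.00517) without the muscle-rich libraries and -0.46 ± 0.15 (adjusted p = 0.052) with all 17. Across the 17 ways to leave out 1 library from the whole set it passed in 6, those without female 1, 2 or 6 or male 1, 2 or 6. After removing the muscle-rich libraries and scaling to the median, the difference was -0.13 (adjusted p = 0.521).

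PSMD5, which holds the base apart from the core during assembly, had a signal of 0.415, 0.980 and 1.61 in the 6 females and of 1.23, 2.22 and 3.67 in the 8 males. The difference without the muscle-rich libraries was -0.74 ± 0.20 (SE, limma adjusted p = 0.00825), and with median scaling of those 14 libraries -0.46 (adjusted p = 0.0696). PSMD9 had 10.5, 14.9 and 17.1 in the females and 13.98, 18.4 and 25.2 in the males, with a difference of -0.36 ± 0.14 (SE, adjusted p = 0.057). Both pairs of ranges overlapped, and the PSMD9 difference turned to 0.077 with median scaling of those libraries.

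**Figure D4:**
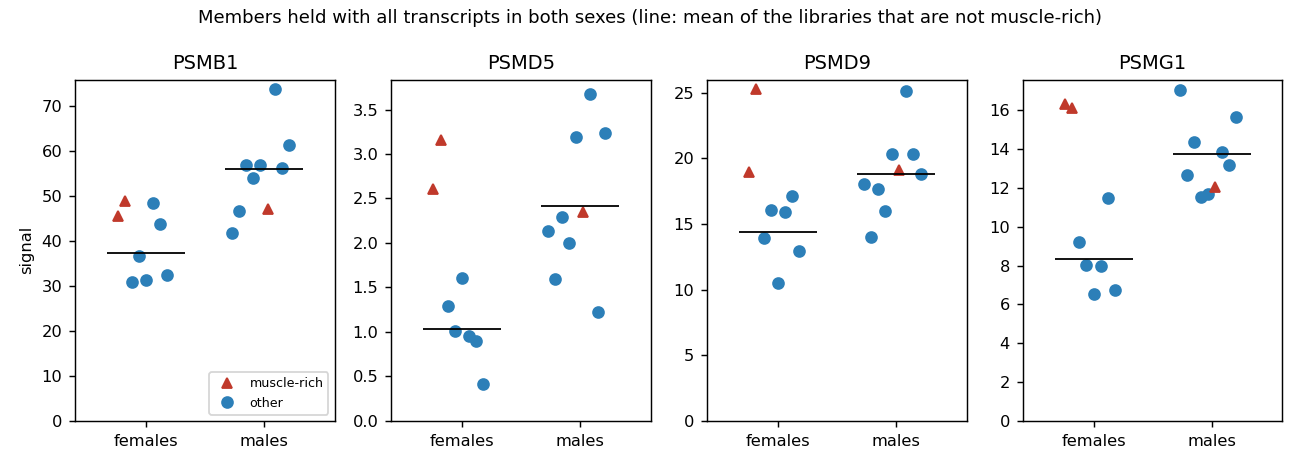
Signal of PSMB1, PSMD5, PSMD9 and PSMG1 in each of the 17 libraries by sex, with muscle-rich libraries as red triangles and a line at the mean of the others. Blue points of the sexes overlap for PSMB1, PSMD5 and PSMD9 and do not for PSMG1, where the red triangles of females lie among the males.

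PSMD14 was held with 1 of its 3 transcripts in both tables. That transcript had a signal of 0.0965, 1.09 and 3.26 in the 6 females and of 2.13, 3.997 and 11.3 in the 8 males. Its difference was -1.46 ± 0.37 (SE, limma adjusted p = 0.00584) without the muscle-rich libraries and -0.83 (adjusted p = 0.245) with all 17. In females 3 to 8 this transcript, the variant X2, held 0.911% to 42.0% of the gene, whose whole signal ran from 5.09 to 10.7. Whether the split of reads between variants has a part in this difference was not tested. Age labels and library name series did not overlap between the sexes, so sex, age and name series cannot be told apart in these values. Against the 5 males of the first name series 0 of the 13 genes passed, with 7.62% of all genes, and against the 4 of the second 0 passed, with 0.0106%.

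Of 17 other pathway genes tested between the sexes, 2 passed in limma in all 17 libraries, against 13.6% of all genes, and 5 did without the muscle-rich libraries, against 38.6%. Neither count exceeds the share of all genes. UBA6 was among them and lower in females. It had a mean of 2.53 ± 0.558 (SD, n = 6) in the females and 5.69 ± 1.45 (SD, n = 8) in the males, with no overlap. The UBA6 log2 difference was -0.84 (limma adjusted p = 0.0049) in all 17 libraries and -0.91 (adjusted p = 0.000637) without the muscle-rich ones. With median scaling it was -0.53 (adjusted p = 0.0541) in all 17, where it did not pass, and -0.56 (adjusted p = 0.0107) without the muscle-rich ones.

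With the age label as a slope within each sex, 0 of 46 proteasome genes passed in females, against 0% of all genes, and 0 of 13 in males, against 0%. At an unadjusted p under 0.05, 1 gene did in females (PSMD5), against 693 of all 12868 genes. In males 2 did (PSME3 and PSMG2, each held with some of its transcripts), against 974 of all 9497. Without the muscle-rich libraries these counts were 0 in females, against 291 of 12868, and 1 in males (PSME3), against 174 of 9497. The lowest adjusted p among proteasome genes was 0.449 in females and 0.417 in males. The slopes of the sexes were also compared, and 0 of 13 differed, against 0% of all genes. Under an unadjusted p of 0.05 there were 2, against 511 of all 9415 genes.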

How the data were processed

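Libraries were grouped by the labelled sex. The values are a signal for each transcript in each library, deposited by the authors in separate files for females and males, per the file headers. Partek is named in the submitters' processing notes. For the aligner, genome build, quantification and scaling, no statement is given in the sources used here. The offset of 1 was subtracted and transcripts were summed per gene, with symbols from the name column. The male table was held in part and ended in a row that was not read, so both tables shared 17119 of 26644 transcripts. Tables were joined by transcript identifier.

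Genes reaching a signal of 1 in 8 or more of the 17 libraries (4 or more within a sex) were tested with limma 3.58.1 in R 4.3.3. The fit used log2(signal + 1), a trend of variance with the mean, and p-values adjusted over all genes by Benjamini-Hochberg. Fold changes on this scale understate those of low genes. All 46 proteasome genes passed the filter in females, and those in both tables passed it there. The scripts were tested on simulated data. For the limma fit these had independent noise, a residual SD capped at its median and no muscle-rich libraries. They thus do not show how the fit performs on the present data. Low values were whole multiples of a step (within 0.1 of a step) in 36.3% to 75.1% of cases, so reads could not be recovered for a count test, and steps were used for relative depth.

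The members, lists and muscle-rich libraries were chosen with earlier results of these data known. Values are given for the catalytic, immunoproteasome, activator and inhibitor genes, for the extremes of each other role, and for genes passing or nearest to passing between the sexes. The 3 genes most like 7 chosen members over 14 libraries could not be found, since these members were held wholly or mostly in the female table alone. Comparison within the female table was chosen after seeing the data. Literal use of the first name field misses PSMB4, whose name starts with an accession, and it was included. One gene of the other pathway lists is counted but not reported here by name.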

Additional observations from a re-analysis of the deposited data

Results flagged for a closer look

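In 3 of 62 sets of values examined, 1 library stood apart from the others of its sex by Dixon's test, which chance alone does in about 5% of sets. PSMB8 in female 2 had a log2(signal + 1) of 0.89, where the next lowest female was at 2.75. The log2 ratio of PSMB8 to PSMB5 in female 2 was -6.41, and the next lowest was -3.66. PSMB9 in female 6 had a log2(signal + 1) of 3.64, where the next highest was at 2.89. Female 2 is muscle-rich and female 6 is not.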

How the results depend on the processing

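No paired analysis was possible, since each animal gave 1 library. In females, proteasome genes below the others in both muscle-rich libraries numbered 0 as deposited, 4 with median and 7 with upper quartile scaling; over both tables, genes above numbered 2 with median scaling. The mean ratio difference of PSMB8 to PSMB5 was -3.81 with a pseudocount of 0.1 and -2.40 with 10, and that of PSMB10 to PSMB7 was -1.82 with 10. The median correlation of PSMB1, PSMD5, PSMD9 and PSMG1 over 14 libraries was 0.71, and 0.23 with median scaling, 0.26 centred within each sex and 0.10 with both. Between the sexes, 4 proteasome genes passed without the muscle-rich libraries and 2 with median scaling as well; leaving out 1 library gave 0 to 1. Of the other pathway genes, 5 passed without the muscle-rich libraries, 0 with median scaling, 1 with upper quartile scaling, 0 with an age term, 1 against male series A and 0 against series B; leaving out 1 library gave 1 to 4. The sign turned for PSMD9, at 0.16 with median scaling, 0.11 with upper quartile scaling and 0.077 with median scaling without the muscle-rich libraries. It turned for the PSMC5 transcripts, at 0.29, 0.25 and 0.58 under those settings, 0.14 without the muscle-rich libraries, 1.11 with an age term and 0.063 against series B. The causes were not tested. Depth in reads is unknown, and low members such as PSMD5 and PSMB8 in female 2 are the least precise.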

Other observations

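Genes annotated as copies of proteasome genes followed their parents. LOC103878368, a copy of PSMB5, had a signal of 10.9 and 11.4 in females 1 and 2 against 2.19 to 3.86 in females 3 to 8. LOC101015970, a copy of PSMA6, had 10.9 and 6.41 against 1.08 to 2.90. LOC100998789, a copy of PSMC6, had 3.35 and 5.43 against 0.281 to 0.636. How reads were divided between these and the parent genes is not given in the sources used here, so the values of PSMB5, PSMA6 and PSMC6 are uncertain to that extent.

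Variant shares also varied among the females low in muscle genes. In female 6 the PSMF1 variant X3 held 70.5% of the gene, where the other 7 females ranged from 10.2% to 43.1%. The PSMD12 variant X2 held 84.8% there, against 1.42% to 45.2% in the other 7.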
